A study of Mus musculus with 2 samples.

Results

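Luminal progenitor genes were examined in sorted mammary basal cells after macrophage depletion. The 10 genes were *Kit*, *Aldh1a3*, *Elf5*, *Cd14*, *Lcn2*, *Ehf*, *Elf3*, *Rasef*, *Cd24a* and *Ly6a*, taken by name as genes of hormone receptor negative luminal progenitors, out of 49492 genes in the count table. *Ly6a* encodes Sca1, which the paper describes as a label of luminal cells with estrogen receptor and of a few basal cells, so its place on the list is uncertain. Basal cells (lin-CD24+CD29hi) had been sorted from adult wild-type female mice. Clodronate liposomes (CL), lipid vesicles that kill the macrophages that ingest them, were given to one group (CL basal), whereas the other (Ctrl basal) is labelled as untreated in its sample record and as treated with saline in the series description. Both carried the time label day 7, and each group was 1 library, with no statement of how many mice it came from. Without replicates the spread between mice or sorts is unknown, and every interval covers counting error only. Counting of both mates of fragments, to which an excess of even numbers among low counts points, makes the intervals too narrow. With counts halved the intervals of *Elf3* and *Ly6a* below also reach 0 and more pairs of genes overlap.

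The mammary duct has an inner luminal layer and an outer basal layer. Luminal progenitors are the luminal cells without estrogen and progesterone receptors that divide readily and give rise to the milk-secreting alveolar cells, under control of the ETS transcription factor *Elf5*. They are recognised by the receptor *Kit* and by aldehyde dehydrogenase activity, to which *Aldh1a3* contributes. In a basal sort these genes can be read from basal cells that express them at a low level or from luminal cells that enter the gate, and in bulk RNA fewer cells of a type and less RNA per cell cannot be told apart.

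All 10 genes had at least 20 counts over both libraries, the minimum for being compared. In CL basal, 9 of the 10 were lower than in Ctrl basal and 1, *Cd24a*, was higher (10 of 10 were lower with a trend on abundance removed), whereas 51.8% of all 17356 compared genes were lower and 48.2% higher. For the 10 genes the median log2 fold change was -0.48, against -0.01 for all compared genes. A change of at least 2-fold was reached by 1 of the 10, *Aldh1a3*, which was lower, and 4.79% of all compared genes were lower by this margin and 2.07% higher. At 1.5-fold, *Aldh1a3*, *Ehf*, *Cd14*, *Rasef* and *Kit* were lower, 5 of the 10, against 11.7% of all genes, and 0 of the 10 were higher, against 6.33%. With the trend on abundance removed 3 of the 10 passed 1.5-fold, since *Kit* and *Rasef* came to -0.57. Genes with few counts reach a fold threshold more often. Among the 13507 genes with at least 100 counts, a group that holds all 10, 1.83% were lower by 2-fold and 6.94% by 1.5-fold. Of all genes past 2-fold, 69.8% were lower. This share was 79.2% among genes with at least 100 counts, and 57.0% once a smooth dependence of the ratio on abundance had been taken out.

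**Figure D1:**
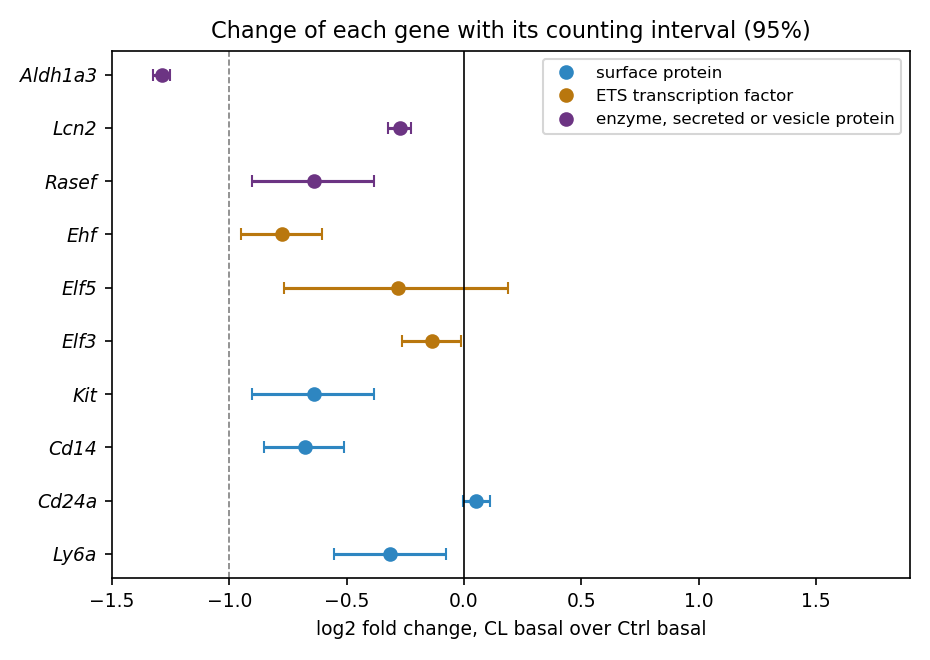
The log2 fold change of CL basal over Ctrl basal (x axis) is plotted for each of the 10 genes, coloured by the kind of protein, with bars for the 95% exact binomial interval, which covers counting error only. *Aldh1a3* at -1.29 lies beyond the dashed line of 2-fold, *Cd24a* at 0.05 is the one gene right of 0 (-0.02 with a trend on abundance removed), and the wide bar of *Elf5* crosses 0.

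Depths were similar, with a total of 37846008 counts for Ctrl basal and 38962512 for CL basal. Counts were scaled to CPM, the count of a gene per 1000000 counts of the effective library size, and the 3 counts that a count of 0 allows came to 0.078 CPM in both libraries. The sort was checked by its markers. The 14 basal and myoepithelial genes held 22718 CPM in CL basal and 21743 in Ctrl basal, led by *Krt14* and the smooth muscle myosin gene *Myh11*. Genes of luminal cells were also present in both, and their values stand beside the results below.

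Levels were compared between genes per length, as CPM per kilobase of exon. In Ctrl basal *Aldh1a3* had the highest level of the 10, 110.7, which placed it at rank 482 of the 17356 genes. It was followed by *Lcn2* at 74.6 and *Cd24a* at 46.6. The order then ran through *Elf3* (12.6), *Cd14* (12.4), *Ly6a* (7.12), *Ehf* (3.50), *Rasef* (1.51) and *Kit* (0.933) to *Elf5* (0.373). The counting intervals of neighbouring levels overlapped for *Elf3* and *Cd14* alone. The highest level was thus 297 times the lowest, so the defining receptor *Kit* and the defining factor *Elf5* were among the scarcest of the 10 in these cells, at percentiles 30.1 and 16.0 of all compared genes. In CL basal the order was the same except that *Aldh1a3*, at 45.3, stood behind *Lcn2* at 61.7 and *Cd24a* at 48.3, and no neighbouring intervals overlapped. With counts halved those of *Cd24a* and *Aldh1a3* did overlap in CL basal.

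**Figure D2:**
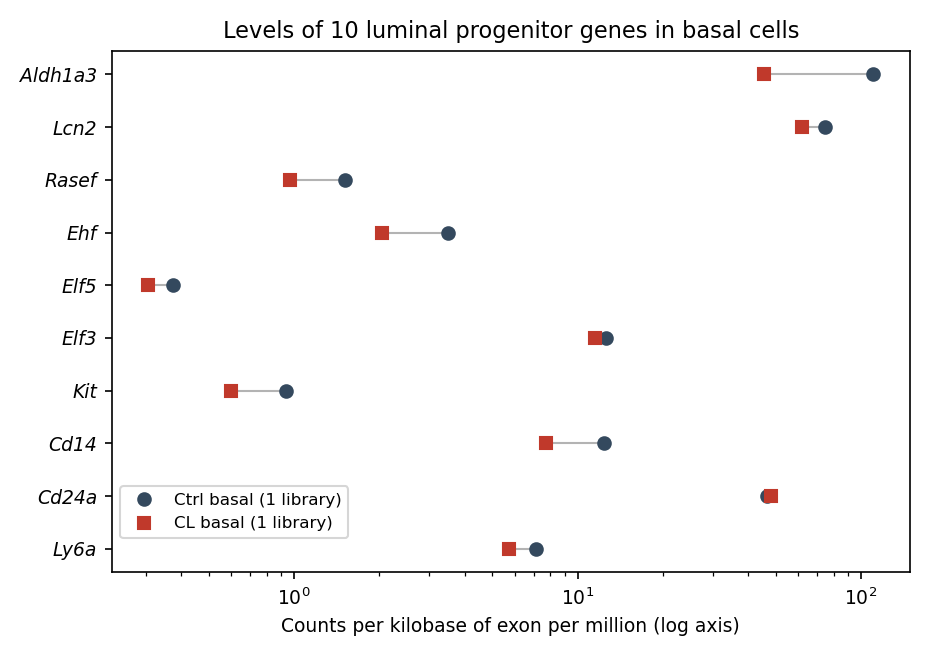
The level of each gene in CPM per kilobase of exon (counts per kilobase of exon per 1000000, log axis) is shown in Ctrl basal (circle) and CL basal (square), 1 library each. *Aldh1a3* spans the widest gap, from 110.7 to 45.3, and the symbols of *Cd24a* nearly coincide.

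The largest change belonged to an enzyme. *Aldh1a3* (chromosome 7, 66390890 to 66427517, GRCm38), which makes retinoic acid from retinaldehyde, had 19601 counts in Ctrl basal and 8048 in CL basal. These were 511 and 209 CPM, so that CL basal held 41.0% of the Ctrl basal level. On the log2 scale the difference was -1.29, with a 95% exact binomial interval of -1.33 to -1.25, which overlapped that of none of the other 9 genes. Such a change was rare among abundant genes: of 1505 genes with at least 10000 counts, 9 were lower by 2-fold, a share of 0.598%, and *Aldh1a3* was one of them. The luminal keratins *Krt7* and *Krt19* and the hormone-induced growth factor gene *Areg*, all from the luminal lists, were 3 more of these 9. The rest, named after their values were seen, were *Gm10800* (-2.58, the lowest), *Ceacam1*, *Basp1*, *Hmox1* and *Gm15270*, which are not on the luminal lists. *Aldh1a3* alone made up 55.5% of the summed CPM of the 10 genes in Ctrl basal and 37.1% in CL basal. Without it, the sum of the other 9 was 410.1 CPM in Ctrl basal and 355 in CL basal, and their median log2 fold change was -0.31.

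The other genes of retinoic acid metabolism and response were split. Of 15 compared, 9 were lower and 6 higher, with 1 past 2-fold in each direction (*Stra6*, from 29 counts in Ctrl basal to 5 in CL basal, and *Aldh1a7*, from 8 to 28, both named after their values were seen) and a median of -0.09. *Crabp2*, which carries retinoic acid to the nucleus, was at -0.17 on the log2 scale. The related enzyme gene *Aldh1a1*, also picked after its value was seen, had 222 counts in Ctrl basal and 242 in CL basal, or 0.12 on the log2 scale. Per length, *Aldh1a3* was 39.3 times as abundant as *Aldh1a1* in Ctrl basal and 14.8 times in CL basal.

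*Lcn2* and *Rasef* were grouped with the enzyme, as members that are neither surface proteins nor transcription factors. *Lcn2* (chromosome 2, 32384633 to 32388252), a secreted protein that binds iron-loaded siderophores of bacteria, had 7504 counts in Ctrl basal and 6221 in CL basal, or -0.27 on the log2 scale (-0.32 to -0.23). *Rasef* (chromosome 4, 73714579 to 73790709), a Rab family GTPase gene, had 316 and 203 counts in the same order, or -0.64 on the log2 scale (-0.90 to -0.38). *Lcn2* had the smaller difference, but the intervals of both genes overlapped with counts halved (-0.34 to -0.21 for *Lcn2* and -1.02 to -0.27 for *Rasef*).

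*Lcn2* is also a granule gene of neutrophils. Of the 10 neutrophil genes listed, *Ly6g* and *Elane* were at 0 in both libraries, and *Ngp* went from 16 counts in Ctrl basal to 76 in CL basal. *Ltf*, which luminal cells express as well, went from 5201 to 3176. The list without *Ltf* had 2 genes with enough counts, *Ngp* (2.11 on the log2 scale) and *S100a9*, both higher in CL basal, the direction opposite to that of *Lcn2* (*S100a9*, with 15 and 66 counts, was named after its values were seen). The part of neutrophils in the value of *Lcn2* was not tested. Genes of *Lcn2* binding and induction were split, with 3 of 6 lower and a median of 0.03, and *Cebpb*, a factor of the acute phase response, was at 0.28.

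The 3 transcription factors of the list belong to one small branch of the ETS family, whose members are typical of epithelia, and all 3 were lower in CL basal by unequal amounts. *Ehf* (chromosome 2, 103263433 to 103303278) had 748 counts in Ctrl basal and 438 in CL basal, or -0.77 on the log2 scale (-0.95 to -0.60). Its change was the second largest of the 10 by value, but its interval overlapped those of *Cd14*, *Rasef*, *Kit* and *Elf5*. *Elf3* (chromosome 1, 135253575 to 135258568) had 1074 and 979 counts, or -0.14 on the log2 scale (-0.26 to -0.01, and up to 0.04 with counts halved), an interval that did not overlap that of *Ehf*. *Elf5* (chromosome 2, 103411688 to 103450989) had 84 and 69 counts, and at this depth its difference of -0.28 (-0.77 to 0.19) could not be told from 0. Of the 2217 exonic bases of *Elf3*, 162 are shared with the opposite-strand gene *Gm26642* (697 counts in Ctrl basal and 680 in CL basal), and whether strand was used in counting is not stated, so its value is uncertain.

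*Ehf* and *Elf5* are neighbours, 108409 bases apart on chromosome 2, and the 3 genes annotated between them had no counts in either library. Among 19 other ETS factor genes with enough counts, 5 were lower and 14 higher in CL basal, 0 passed 2-fold in either direction, and the median was 0.13. *Elf1* (0.27) and *Ets2* (0.25) were the most counted of them. The values of the 3 progenitor factors were below 0 and the median of the other family members was above it. For *Elf5*, and for *Elf3* with counts halved, the interval reached 0.

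ETS proteins bind DNA at a GGAA core. To show where such letters occur by the members themselves, the bases before the start of 3 genes are printed, from RefSeq (GRCm38.p6), 5′ to 3′ on the strand of the gene and ending where an annotated exon begins. Of the 10 genes, 5 had a window in the sequence table, and these 3 were those with at least 150 bases before an exon. Capitals mark GGAA on either strand (GGAA or TTCC).
Kit, chr5:75574737-75574915, + strand: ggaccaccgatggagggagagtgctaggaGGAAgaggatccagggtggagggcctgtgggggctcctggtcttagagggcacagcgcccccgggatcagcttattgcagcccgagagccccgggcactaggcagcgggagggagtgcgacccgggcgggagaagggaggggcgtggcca
Elf5, chr2:103423818-103424061, + strand, at a start within the gene: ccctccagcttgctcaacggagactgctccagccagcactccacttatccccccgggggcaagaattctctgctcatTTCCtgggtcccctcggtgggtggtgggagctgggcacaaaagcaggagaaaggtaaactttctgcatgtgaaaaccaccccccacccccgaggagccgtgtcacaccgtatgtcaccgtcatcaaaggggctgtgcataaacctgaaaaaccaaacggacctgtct
Elf3, chr1:135258569-135258722, - strand: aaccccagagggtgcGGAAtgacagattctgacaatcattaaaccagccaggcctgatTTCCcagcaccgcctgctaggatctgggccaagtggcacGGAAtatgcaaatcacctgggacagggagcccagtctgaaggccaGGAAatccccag
The core was found once each by *Kit* and *Elf5* and 4 times by *Elf3*. It is a short and common word, present in 86.4%, 93.0% and 82.5% of all 32851 promoter windows cut to the same lengths (179, 244 and 154 bases). The longer form GGAAGT was in none of the 3 stretches (0 matches), against 12.9%, 19.1% and 10.9% of the windows. A match is a run of letters and not a measured binding site, and no binding was measured in these cells.

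Of the 4 genes of surface proteins, *Kit* and *Cd14* were lower by 1.5-fold, *Ly6a* by less, and *Cd24a* was level. With the trend on abundance removed *Kit*, at -0.57, fell short of 1.5-fold. *Kit* (chromosome 5, 75574916 to 75656722), the receptor for stem cell factor, had 319 counts in Ctrl basal and 205 in CL basal, or -0.64 on the log2 scale (-0.90 to -0.38). *Cd14* (chromosome 18, 36725074 to 36726736), a co-receptor for bacterial lipopolysaccharide, had 748 and 468 counts, or -0.68 on the log2 scale (-0.85 to -0.51). These changes of *Kit* and *Cd14* were of like size, with overlapping intervals. *Ly6a* (chromosome 15, 74994877 to 74998031), which encodes Sca1, had 329 and 265 counts, or -0.31 on the log2 scale (-0.55 to -0.08, and up to 0.02 with counts halved). *Cd24a* (chromosome 10, 43578284 to 43584265) had 4606 and 4791 counts, and its difference of 0.05 (-0.01 to 0.11), or -0.02 with the trend on abundance removed, could not be told from 0. *Cd24a* encodes CD24, the antigen for which the cells were sorted as positive.

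Genes that work with these surface proteins, or are related to them, were compared as lists, of which that of *Kit* signalling was near level. *Kitl*, the gene of the *Kit* ligand, had 5107 counts in Ctrl basal and 7221 in CL basal, or 0.50 on the log2 scale (0.44 to 0.55), the opposite direction to its receptor and below 1.5-fold. *Ptpn11*, a phosphatase that transmits receptor tyrosine kinase signals, was at 0.11. Of the 15 genes of *Kit* signalling, 8 were lower and 7 higher, with 0 past 2-fold and a median of -0.02. For *Cd14*, 11 genes of Toll-like receptor signalling were compared, of which 7 were lower, 0 passed 2-fold in either direction and the median was -0.18. The adaptor gene *Myd88* was at 0.15 and the kinase gene *Irak1* at -0.18. *Tlr4* (206 counts in Ctrl basal and 169 in CL basal) and *Ly96* (187 and 135), which form the receptor that *Cd14* serves and were picked after their values were seen, were at -0.29 and -0.47. The Ly6 family was split, with 2 of 6 genes lower and 4 higher. *Ly6d* was lower by 2-fold (136 counts in Ctrl basal and 58 in CL basal, -1.21), as was *Ly6k* (37 and 17 counts, named after its values were seen), whereas *Ly6e*, the most counted, was at 0.26. The coding parts of Ly6 genes resemble each other, so reads of *Ly6a* may have been shared with close relatives.

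Cells that carry these surface proteins outside the luminal layer were followed by their own markers. *Cd14* is a gene of macrophages, and the 13 macrophage genes summed to 33.4 CPM in Ctrl basal and 30.9 in CL basal, with 7 of 9 compared genes lower and a median of -0.23. *Mpeg1* was higher (28 and 88 counts), *Cd68* was at -0.33 and *Ptprc*, the gene of the leukocyte antigen CD45 used to exclude blood cells, was at -0.05. *Kit* is a gene of mast cells, and of the 7 mast cell genes *Fcer1a* and *Ms4a2* were at 0 in both libraries and 1 had enough counts, *Hdc*, with 28 counts in Ctrl basal and 68 in CL basal. *Ly6a* is a gene of endothelial cells and of some lymphocytes. The 12 endothelial genes summed to 565 CPM in Ctrl basal and 465 in CL basal, with 10 of 12 lower and a median of -0.27, led by *Cdh5* (-0.32) and *Pecam1* (-0.37), the gene of the excluded antigen CD31. The 10 lymphoid genes were near level, with 8.63 and 9.21 CPM. The 8 fibroblast genes had a median of -0.42, with 7 lower, and *Lum* was lower by 2-fold. The part of these cells in the values of *Cd14*, *Kit* and *Ly6a* was not tested.

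The genes were then set beside other luminal genes. All 12 pan-luminal genes were lower in CL basal, 5 of them by 2-fold (*Krt7*, *Cldn7*, *Cldn4*, *Krt19* and *Cldn3*), with a median log2 fold change of -0.84. *Krt8*, the most abundant luminal keratin, went from 1250.2 to 766 CPM per kilobase (-0.71 on the log2 scale) and *Krt18* from 925 to 511 (-0.86). The ratio of *Krt14*, the basal keratin, to *Krt8* per length was 2.50 in Ctrl basal and 4.50 in CL basal. Of the 11 hormone sensing luminal genes, 9 were lower, 3 of them by 2-fold (*Areg*, *Wnt4* and *Prom1*), with a median of -0.86. *Gata3*, a factor of luminal differentiation, was higher at 0.60 and *Tbx3* was at 0.09. Most progenitor genes were thus lower beside most genes of the other luminal lists. Their median of -0.48 was -0.64 without *Cd24a* and *Ly6a* and -0.31 without *Aldh1a3*. The part of a differing share of luminal cells in the sorts was not tested.

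Further genes of hormone receptor negative luminal and alveolar cells ran from -3.00 to 0.25, against -1.29 to 0.05 for the progenitor genes. Of 10 with enough counts, 7 were lower, 3 of them by 2-fold, and 3 were higher, with a median of -0.59. *Wfdc18*, a secreted protease inhibitor family gene of alveolar cells, had 1500 counts in Ctrl basal and 516 in CL basal (-1.54, interval -1.69 to -1.40), and *Csn3*, a milk casein gene, had 1265 and 512 (-1.31, -1.46 to -1.16). The third, *Lalba*, had 30 and 2 counts and was named after its values were seen. *Plet1*, a surface protein gene, was at -0.46 and *Sox9*, a factor of progenitor cells that basal cells express too, at 0.25. *Gabrp* and *Csn2* were at 0 in both libraries. By contrast, of the 14 basal and myoepithelial genes 10 were higher and 4 lower, 0 passed 1.5-fold, and the median was 0.08, with *Krt14* at 0.14 and *Myh11* at 0.02.

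**Figure D3:**
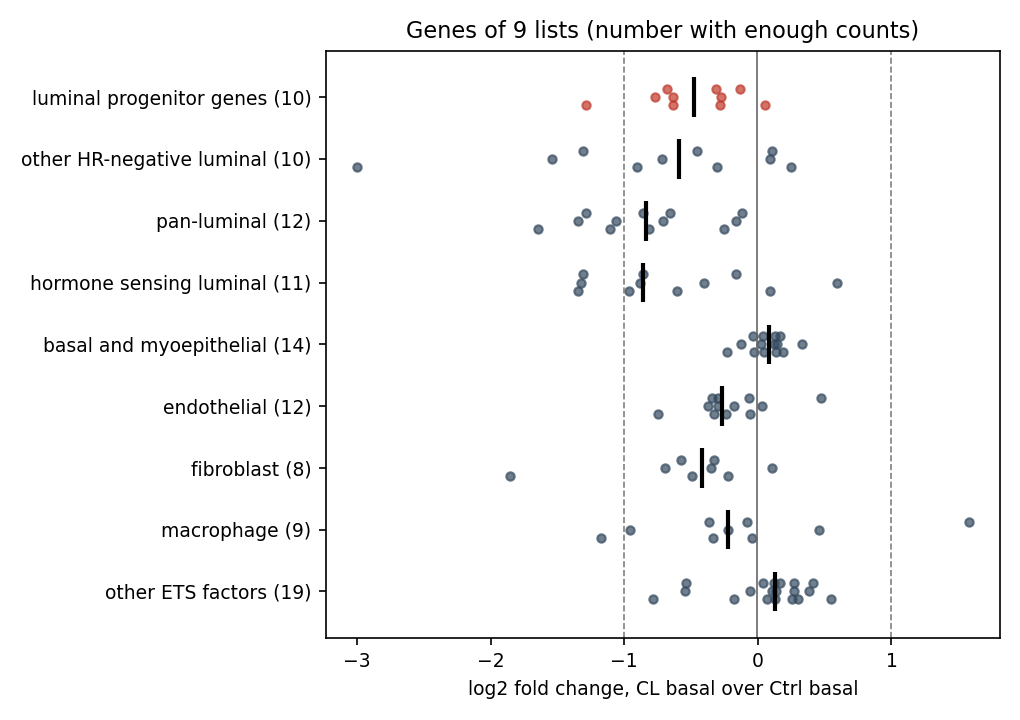
Points are single genes with at least 20 counts in 9 lists, placed by log2 fold change of CL basal over Ctrl basal, with a black bar at each list's median, dashed lines at 2-fold and a grey line at the median of all compared genes (-0.01). The 4 luminal lists have medians from -0.86 to -0.48 and the basal list at 0.08.

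Within the 10 genes large and small changes were found at high and at low abundance. *Aldh1a3* and *Lcn2* had the highest levels in Ctrl basal, with log2 fold changes of -1.29 and -0.27, and among scarce genes *Kit* and *Rasef* were at -0.64 and *Elf5* at -0.28. Of 45 pairs among the 10 genes, 20 had overlapping intervals, and 27 with counts halved. *Kit*, *Rasef*, *Cd14* and *Ehf* overlapped in every pair, at -0.77 to -0.64, and *Lcn2*, *Elf3* and *Cd24a* were closer to 0, with intervals that overlapped none of those 4. With counts halved, the intervals of *Lcn2* and *Elf3* overlapped those of *Kit* and *Rasef*, and stayed apart from those of *Cd14* and *Ehf*.

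**Figure D4:**
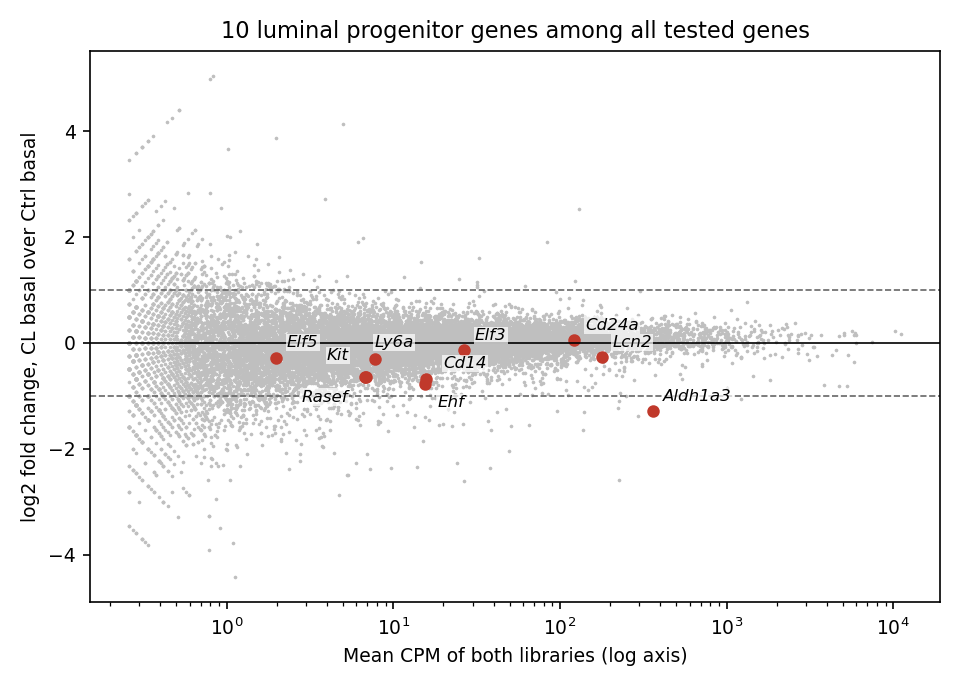
All 17356 compared genes (grey) are placed by the mean CPM of both libraries (log axis) and by the log2 fold change of CL basal over Ctrl basal, with the 10 luminal progenitor genes in red and dashed lines at 2-fold. *Aldh1a3* at -1.29 is the one red point beyond 2-fold, and *Cd24a* at 0.05 the one above 0 (-0.02 with a trend on abundance removed).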

How the data were processed

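RNA of basal cells isolated by fluorescence-activated sorting was sequenced on an Illumina HiSeq instrument. The deposited table gives, for each gene, its exonic length and the raw counts that the authors obtained for each library, without normalization. The submitters' processing notes name GRCm38 and mm10. Aligner, annotation, strand setting and filters were not given in the sources used here, and the labels and the methods name different RNA extraction reagents. Of the 10 genes, 8 had the same start and end in GENCODE M21, and all 10 are annotated there as protein coding. The 2 columns of the authors' own ratios were not used.

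Samples were grouped by their titles. Effective library sizes came from TMM in edgeR 4.0.16, run under R 4.3.3 (CL basal 0.987 and Ctrl basal 1.01). The libraries held 38962512 (CL basal) and 37846008 (Ctrl basal) counts. A gene was compared if its summed count reached 20. Log2 fold changes used a prior count of 2. The 95% intervals were Clopper-Pearson intervals of the CL basal share of each gene's reads, and exact Poisson intervals for levels (scipy 1.17.1). With 1 library per group no test was run and no p-value is given, and a call means a fold of at least 2. Even numbers made up 68.7% (CL basal) and 67.9% (Ctrl basal) of counts up to 20, a sign that both mates of a fragment were counted, which makes the intervals too narrow. Of counts above 1000 they made up 49.9% (CL basal) and 49.7% (Ctrl basal), without such an excess. The fold and interval calculation was tested on simulated counts with Poisson error only, without spread between samples or counting of both mates. Such counts cannot show how well the intervals hold for the deposited data. The 10 genes and the 16 other lists were chosen with earlier results of these data known. Of the other lists, genes past 2-fold with at least 100 counts and the 2 most counted others were named, exceptions are marked, and 1 gene that this rule names is not reported here. Promoter bases came from RefSeq.

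The alternatives were scaling by total counts, DESeq2 1.42.0 size factors or upper quartile, prior counts of 0.5 and 5, counts halved, removal of a smooth trend on mean expression, other count minimums and a 1.5-fold threshold.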

Additional observations from a re-analysis of the deposited data

How the results depend on the processing

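Of 70 values of the 10 genes under other scalings, prior counts, halved counts and trend removal, 66 stayed within the 95% interval of the reported value. The exceptions were *Aldh1a3* with total counts (-1.33) and without the trend on mean expression (-1.37), *Lcn2* without the trend (-0.35) and *Cd24a* without the trend, which then lay at -0.02 in place of 0.05. *Aldh1a3* stayed past 2-fold in all of them (-1.37 to -1.28). Removing the trend left 3 of the 10 genes past 1.5-fold, since *Kit* and *Rasef* came to -0.57. With the threshold set at 1.5-fold, 5 of the 10 genes were lower, and among all genes 2029 were lower and 1098 higher, against 831 and 360 at 2-fold. With no count minimum 3208 genes were lower and 1342 higher, and with at least 100 counts 247 and 65, out of 13507 genes in place of 17356, so that the share lower went from 4.79% to 1.83%. The median of the 10 genes was -0.64 without *Cd24a* and *Ly6a*, -0.31 without *Aldh1a3* and -0.51 to -0.46 under the other settings. With counts halved, the intervals of *Elf3* (-0.32 to 0.04) and *Ly6a* (-0.66 to 0.02) also reached 0. Depth limits *Elf5* most, with 153 counts over both libraries. No paired analysis was possible because there was a single library on each side.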
